A study of Mus musculus with 10 samples.

Results

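The regions described here were the accessible regions at the ends of mouse genes named Zfp and a number, the symbols under which most mouse zinc finger repressor genes are listed. A peak was taken when the distance of its centre to an end of a protein-coding gene with such a symbol was at most 1000 bp and no end of another coding gene lay nearer. Of the 37513 peaks in the table, 354 met the rule, and they belonged to 248 of the 367 coding genes with a numbered Zfp symbol (67.6%). A further 33 coding genes whose Zfp symbol carries other letters were not taken. The symbol does not say whether a protein has a KRAB domain, which was not examined here, and the rule also takes genes of other zinc finger types, such as Zfp36.

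Open chromatin had been profiled by ATAC-seq, in which the transposase Tn5 inserts sequencing adapters into accessible DNA, on fresh frozen sections of brain and lung from wild-type C57BL/6J mice. Nuclei were then cut out of the sections by laser-capture microdissection. The brain libraries held 50 nuclei captured one at a time (n = 2) or about 200 nuclei in 10 cut areas (n = 2), and the lung libraries 50 (n = 3) or about 200 (n = 3), so that the number of nuclei and the way of capture changed together. The labels call the repeats technical, so p-values below measure only the spread between libraries. The nuclei of each library were picked at random and pooled, so that a different mix of cell types and a different accessibility per cell cannot be told apart in any tissue difference.

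KRAB zinc finger proteins bind DNA through tandem C2H2 fingers and, through the KRAB domain, recruit the corepressor Trim28, which brings in the histone H3 lysine 9 methyltransferase Setdb1, heterochromatin protein 1 and histone deacetylases. Their best known targets are endogenous retroviruses and other transposable elements, and a few of them keep imprinted genes silent. The genes multiplied by tandem duplication and sit in clusters of close relatives.

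The unit of level is reads per 1000000 nuclear-peak reads (RPM), which leaves mitochondrial reads out. Nuclear reads numbered 319307 to 465489 per brain library and 340697 to 3075377 per lung library, which makes a single read worth 2.15 to 3.13 RPM in brain, against 0.325 to 2.94 RPM in lung. The 2 peaks on the mitochondrial genome took 93.4% to 95.8% of all reads in brain and 24.7% to 58.0% in lung, a difference that goes with the tissue throughout, and its part in the results was not tested. Replicates 2 and 3 of the 50-nuclei lung libraries were sparse: they had a read at 69.8% and 64.1% of the 354 peaks, against 92.1% to 98.6% in the brain libraries, 92.9% in the first 50-nuclei lung library and 95.5% to 100% in the 200-nuclei lung libraries. The markers fixed for neurons had 7 of 9 gene-end peaks higher in brain, with summed levels of 262 to 341 RPM in brain libraries and 10.95 to 58.7 RPM in lung libraries. The endothelial markers had 4 of 7 higher in lung, with 70.2 to 119 RPM in brain, against 188 to 389 RPM in lung, and those of lung mesenchyme 3 of 5, with 45.1 to 78.3 RPM in brain, against 220.1 to 424 RPM in lung. The lung epithelial markers had no such peak among 5, Sftpc, Epcam and Nkx2-1 had no gene-end peak at all, and their summed level of 30.1 to 49.3 RPM in brain overlapped that of 10.95 to 78.0 RPM in lung.

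The promoters of 5 genes are shown because a peak of the gene overlaps them and because they stand for the results that follow. They belong to the neighbours Zfp879 and Zfp454, both higher in brain, to Zfp78, the most accessible of the 354 peaks, to Zfp788, the widest peak, and to Zfp869, the second most accessible, which did not pass the test between tissues. Each runs 5′ to 3′ from 250 bases before to 50 bases after the RefSeq gene start (GRCm38.p6). Capitals mark, on either strand, the ETS factor motif CCGGAA, the GC box GGGCGG, the CCAAT box, the motif ACTACAA and a last motif, TTCTGGGAA, which was added after the sequences had been read.
Zfp879 promoter, chr11:50841503-50841802, minus strand: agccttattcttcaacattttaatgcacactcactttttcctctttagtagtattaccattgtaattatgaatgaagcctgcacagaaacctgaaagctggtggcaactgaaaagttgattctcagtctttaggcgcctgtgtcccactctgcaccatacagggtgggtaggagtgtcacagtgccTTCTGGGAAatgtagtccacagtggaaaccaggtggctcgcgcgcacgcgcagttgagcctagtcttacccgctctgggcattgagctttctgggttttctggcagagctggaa
Zfp454 promoter, chr11:50887461-50887760, minus strand: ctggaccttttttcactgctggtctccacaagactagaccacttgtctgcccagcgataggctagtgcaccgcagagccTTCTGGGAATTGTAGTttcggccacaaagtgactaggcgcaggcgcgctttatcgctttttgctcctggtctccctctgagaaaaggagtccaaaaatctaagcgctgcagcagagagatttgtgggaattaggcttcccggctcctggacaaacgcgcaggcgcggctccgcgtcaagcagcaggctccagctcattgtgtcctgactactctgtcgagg
Zfp78 promoter, chr7:6363058-6363357, plus strand: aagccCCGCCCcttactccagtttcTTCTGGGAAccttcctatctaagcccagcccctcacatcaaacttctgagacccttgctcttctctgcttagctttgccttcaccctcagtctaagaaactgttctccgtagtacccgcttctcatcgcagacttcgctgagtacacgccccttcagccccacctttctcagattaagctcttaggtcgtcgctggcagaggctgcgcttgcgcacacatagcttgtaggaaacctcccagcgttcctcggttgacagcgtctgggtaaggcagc
Zfp788 promoter, chr7:41633281-41633580, plus strand: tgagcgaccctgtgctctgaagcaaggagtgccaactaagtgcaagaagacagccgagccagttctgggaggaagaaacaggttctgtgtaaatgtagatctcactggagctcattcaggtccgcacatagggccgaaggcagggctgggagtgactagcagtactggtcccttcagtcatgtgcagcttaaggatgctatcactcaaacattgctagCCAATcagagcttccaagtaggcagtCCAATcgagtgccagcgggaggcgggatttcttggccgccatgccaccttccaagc
Zfp869 promoter, chr8:69716853-69717152, minus strand: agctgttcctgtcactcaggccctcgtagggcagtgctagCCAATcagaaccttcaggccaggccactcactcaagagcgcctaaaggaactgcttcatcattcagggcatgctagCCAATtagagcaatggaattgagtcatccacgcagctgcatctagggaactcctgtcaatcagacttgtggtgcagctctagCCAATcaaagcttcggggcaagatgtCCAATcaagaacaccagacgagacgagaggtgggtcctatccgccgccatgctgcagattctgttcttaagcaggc

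The promoters of these genes were poorer in G and C than those of other open genes, as were those of numbered Zfp genes without a peak. RefSeq promoters matched 206 of the 248 genes, and their median GC content was 54.7%, against 61.7% for 7766 other coding genes with a gene-end peak and 56.3% for all 17492 coding promoters in the table. The observed over expected ratio of CpG was 0.637, against 0.784 in the other open genes and 0.576 in all promoters. GC boxes were present in 45.1% of the 206, against 69.1% of the other open genes and 46.3% of all promoters, whereas CCAAT was present in 49.5% of the 206, against 39.7% of the other open genes and 39.0% of all promoters. CCGGAA was present in 36.4% of the 206, against 28.9% of the other open genes and 19.1% of all promoters. In the 99 numbered Zfp promoters without a peak the median GC content was 52.0%, and GC boxes were present in 43.4%, CCAAT in 51.5% and CCGGAA in 36.4%.

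TTCTGGGAA stood in 7.28% of the 206 promoters, against 1.26% of the other open genes, 1.26% of all coding promoters and 3.03% of the 99 numbered Zfp promoters without a peak. Of the 15 genes that carried it, 14 lay in 6 of the gene clusters described below, among them Zfp108, Zfp111, Zfp112, Zfp180 and Zfp94 in a single cluster on chromosome 7. In 5 of the 15 the promoter also held ACTACAA, and in the printed Zfp454 promoter both stand side by side. Clustered genes are close relatives, so shared letters of this kind are not independent of each other. TTCTGGGAA was chosen after promoters of this same set had been read, and Zfp879, Zfp454 and Zfp78 from among them are counted in the 15. Its share in the 206 is therefore not independent of that choice. ACTACAA, with or without TTCTGGGAA, was present in 7.77% of the 206, against 4.53% of the other open genes and 3.84% of all promoters. In the 99 numbered Zfp promoters without a peak it was present in 3.03%.

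The peaks lay mainly at gene starts. By the strands in the promoter table, 285 lay at the start of the gene and 7 at its far end, and for 62 the strand was not known. The centre lay within 250 bp of the nearest annotated start for 222 of the 292 peaks with one (76.0%), against 69.4% of 10770 other coding gene-end peaks. It was downstream of the start in 48.0%, against 41.1% of the other gene-end peaks, and the quartiles of the signed distance were −66.5 and 118 bp. Peak widths ran from 90 to 1030 bp with a median of 250.5 bp, against 243 bp for other coding gene ends. At 29 peaks the end of another coding gene also lay within 1000 bp, as at Zfp654, which shares its end with Cggbp1, and at these the reads cannot be given to either gene.

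**Figure D1:**
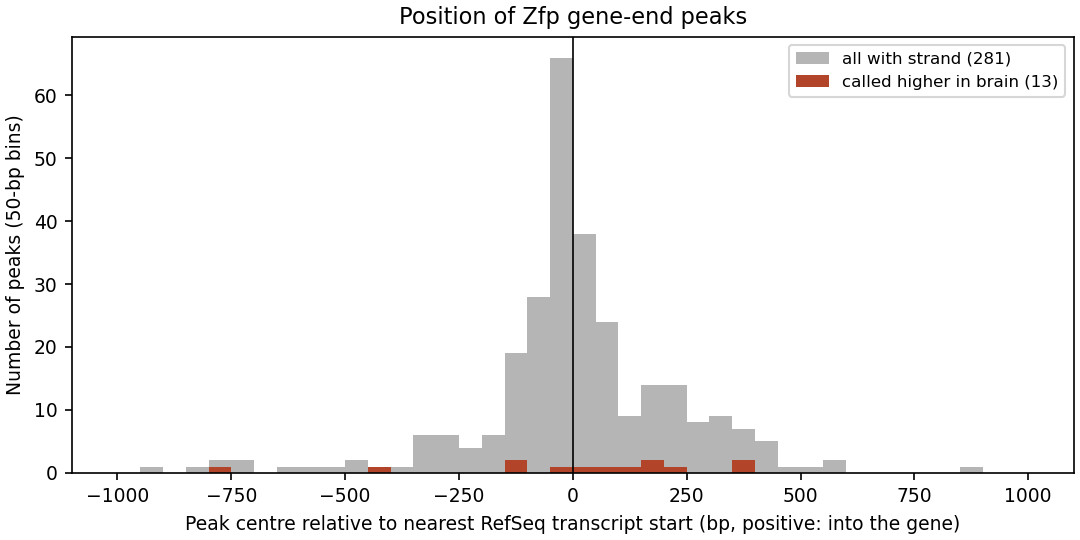
Position of the peak centre relative to the nearest RefSeq transcript start, in base pairs on the horizontal axis (positive values lie in the gene) and number of peaks per 50 bp on the vertical axis. Grey bars hold the 281 peaks with a start within 1000 bp and red bars the 13 of them that were higher in brain, of which 8 lay downstream and 5 upstream of the start.

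A gene often had its start region split into several peaks. A single peak was found at 158 genes, 2 peaks at 76, 3 at 12, and 4 at Zfp53 and Zfp740. Of 106 pairs of neighbouring peaks, 67 were at most 100 bp apart. The fitted folds of a gene's peaks were not always alike. At 29 of the 90 genes with 2 or more peaks the fitted folds between tissues differed in sign, and the median difference between the highest and the lowest log2 fold of a gene was 1.19. These differences were not tested. Many of the narrow peaks had few reads, and no like count was made for other genes. No gene had all of its several peaks called between tissues. Peaks just inside the distance limit were those of Zfp746 (964.5 bp; 11.6 ± 4.77 RPM in brain, against 2.91 ± 2.42 RPM in lung), Zfp771 (968 bp; 8.63 ± 4.47 RPM in brain, against 2.63 ± 3.86 RPM in lung) and Zfp52 (974.5 bp; 8.89 ± 7.17 RPM in brain, against 16.0 ± 8.89 RPM in lung). The nearest ones outside were at Zfp668 (1022 bp; 41.0 ± 10.9 RPM in brain, against 36.0 ± 18.5 RPM in lung), Zfp239 (1038 bp; 16.3 ± 12.5 RPM in brain, against 3.34 ± 2.45 RPM in lung) and Zfp451 (1050 bp; 25.1 ± 8.99 RPM in brain, against 16.7 ± 10.8 RPM in lung), each with SD over 4 brain and 6 lung libraries.

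Mean levels spanned 0.855 to 302 RPM with a median of 24.6 RPM, and 178 of the 354 peaks had a read in all 10 libraries. Zfp78 on chromosome 7 (chr7:6362396-6363354, mm10) was the highest. It had 432, 398, 386 and 279 RPM in the brain libraries, and 85.8 RPM at lowest, 248 RPM at the median and 294 RPM at highest in the 6 lung libraries. A single brain library fell within the lung range. The next were Zfp869 on chromosome 8 (197 ± 35.2 RPM in brain, against 234 ± 22.4 RPM in lung), Zfp438 on chromosome 18 (184 ± 44.7 RPM in brain, against 227 ± 38.2 RPM in lung) and the start peak of Zfp687 (187 ± 17.7 RPM in brain, against 187 ± 46.7 RPM in lung). Zfp687 is the mouse counterpart of a human zinc finger protein that works in a transcription complex with ZNF592 and ZMYND8. Zfp654 (148 ± 44.1 RPM in brain, against 211 ± 32.4 RPM in lung), Zfp868 (177 ± 22.7 RPM in brain, against 149 ± 21.9 RPM in lung), Zfp788 (209 ± 13.4 RPM in brain, against 106 ± 52.1 RPM in lung) and Zfp367 (121 ± 12.9 RPM in brain, against 179 ± 26.3 RPM in lung) followed. Of these 8, Zfp78 and Zfp788 passed the test between tissues and the other 6 did not, with log2 folds from −0.52 at Zfp367 to 0.30 at Zfp868.

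At the low end stood narrow peaks at Zfp606 (chr7:12478477-12478574), Zfp949, Zfp930 and Zfp157. Zfp606 averaged 1.32 RPM in brain, against 0.391 RPM in lung, which rested on 0 or 1 read per brain library and 0 to 2 reads per lung library. Zfp606 and Zfp949 had fewer than 10 reads over all libraries at these peaks and were not tested, which left 352.

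Summed over all 354 peaks, the level was higher in every brain library than in every lung library. The sums were 13844 and 14237 RPM in the 50-nuclei and 14719 and 14252 RPM in the 200-nuclei brain libraries. They were 12031, 11098 and 10519 RPM in the 50-nuclei and 12422, 10866 and 10887 RPM in the 200-nuclei lung libraries. The mean of 14263 ± 358 RPM in brain (SD, n = 4) and 11304 ± 749 RPM in lung (SD, n = 6) amounts to 1.43% and 1.13% of nuclear reads. Gene ends of all coding genes together also had more in brain, with 64.0% ± 2.03 of nuclear reads in brain and 57.3% ± 1.14 in lung. Per 1000000 reads in coding gene-end peaks, the Zfp peaks still summed to 21800 to 22766 in brain libraries and 18474 to 20923 in lung libraries, without overlap. On the log2 scale the difference of 0.34 per 1000000 nuclear reads became 0.18 per 1000000 gene-end reads. Counted per 1000000 of all reads, with the mitochondrial ones, it turned round to −3.14.

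**Figure D2:**
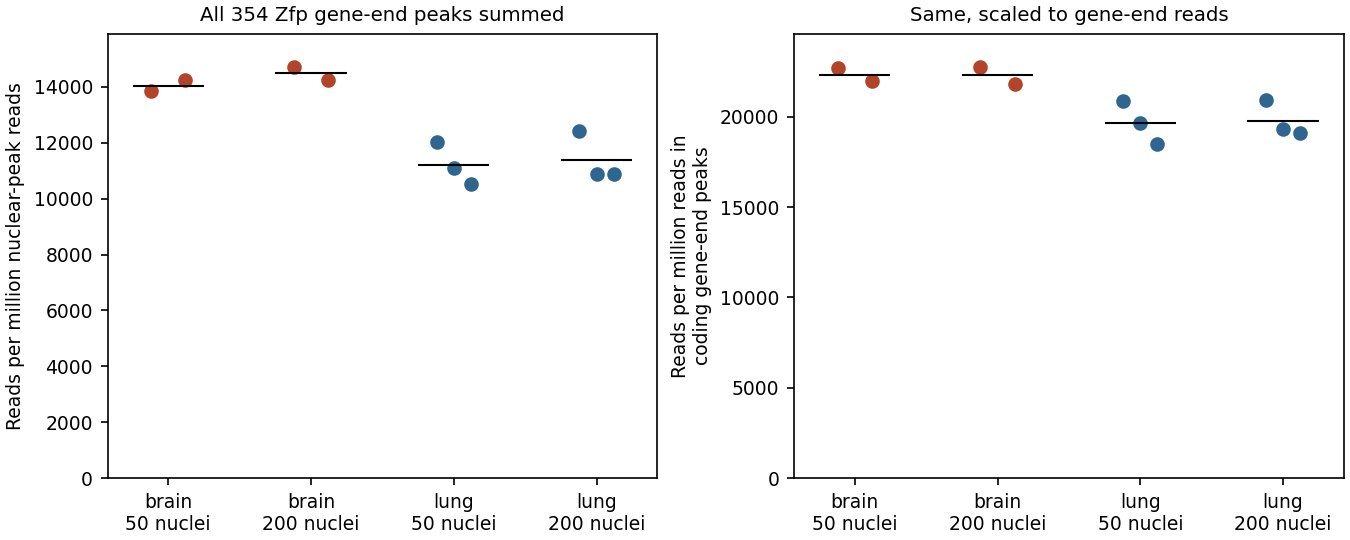
Summed level of the 354 Zfp gene-end peaks in each library, per 1000000 nuclear-peak reads on the left and per 1000000 reads in coding gene-end peaks on the right, both axes from 0. Points are libraries, grouped by tissue and number of nuclei, and black lines are group means. The 4 brain libraries lie at 13844 to 14719 RPM, above the 6 lung libraries at 10519 to 12422 RPM.

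Peak by peak, most Zfp gene ends leaned to brain by less than the test could call. The mean was higher in brain at 266 of the 354 peaks and lower at 88. In the edgeR quasi-likelihood test over all peaks, with Benjamini-Hochberg adjustment at 0.05, 17 of the 352 tested peaks were higher in brain and 2 were lower (5.40%), against 9.72% of all 37464 peaks tested. By direction, 4.83% were higher in brain against 5.85% of all peaks, and 0.568% were lower against 3.88%. Among all coding gene-end peaks 7.69% were called, 6.3% higher and 1.39% lower, so that the share of Zfp peaks called was near or below that of its surroundings. The fitted log2 fold of brain over lung had a median of 0.61 over the 352 peaks and of 0.11 over all peaks, a gap of 0.49, and it was above 0 at 77.0% of them, against 53.9% of all peaks. Other coding gene ends had a median of 0.41, and 70.6% of their peaks had a log2 fold above 0. Every brain library lay above every lung library at 35 of the Zfp peaks, and every one below at 4, where 8.4% and 4.94% of all peaks tested did so.

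**Figure D3:**
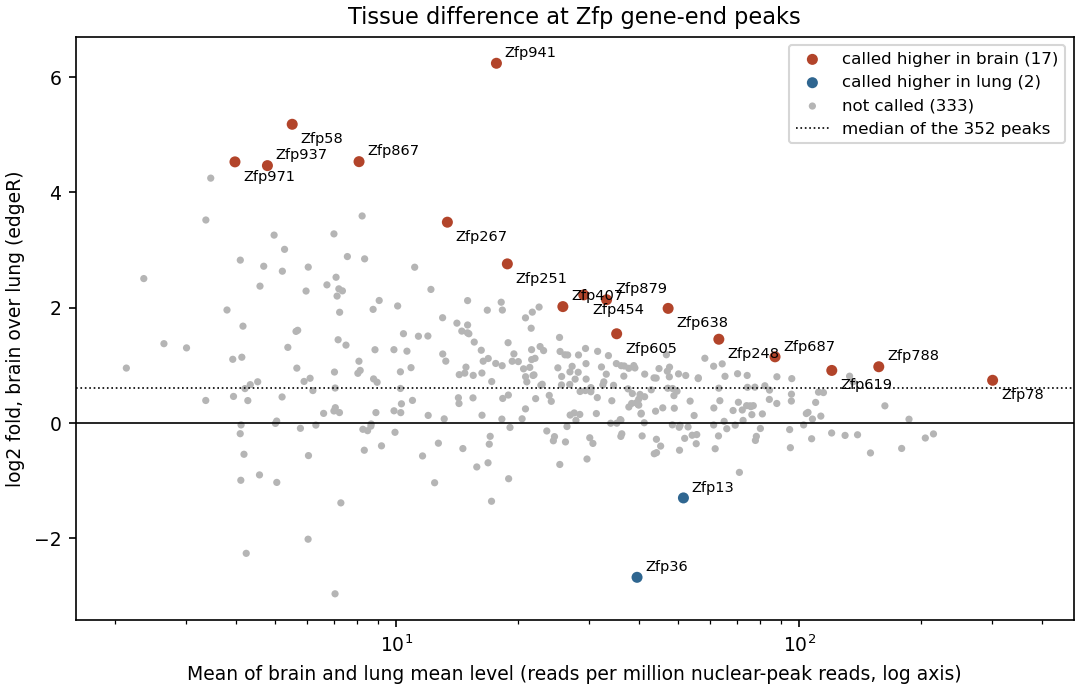
Log2 fold of brain over lung from the edgeR fit against the mean of both tissues' levels, in RPM on a log axis, for the 352 tested Zfp gene-end peaks. Red points passed the test as higher in brain (17), blue points as higher in lung (2), and the dotted line is the median of 0.61. Folds spread widely at low levels, and the peaks called at high levels have folds near 1.

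Zfp941 had the lowest p-value. Its peak (chr7:140821681-140821892) lies 391.5 bp into the gene. It had 32.8, 18.8, 42.6 and 45.1 RPM in the brain libraries, whereas 4 of 6 lung libraries had no read and the others had 2.22 and 1.30 RPM. The log2 fold was 6.24 ± 1.11 (SE; adjusted p = 0.000324, edgeR), and since all 3 of the 50-nuclei lung libraries were at 0, its size depends on the prior count of the fit. It was the sole Zfp peak called in the contrasts at both sizes, with adjusted p = 0.0375 at 50 nuclei and adjusted p = 0.0263 at 200 nuclei (edgeR, spread shared over all 10 libraries). Fitted on the 50-nuclei libraries by themselves it did not pass (adjusted p = 0.46, edgeR).

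Zfp36, the gene of tristetraprolin, is no KRAB gene: its CCCH protein binds AU-rich elements of cytokine and other mRNAs and promotes their decay. The peak at the far end of the gene (chr7:28376436-28376678), 227 bp from that end, had 8.21, 6.26, 5.02 and 21.5 RPM in the brain libraries. In lung it had 27.4 RPM at lowest, 77.3 RPM at the median and 93.0 RPM at highest, so that every lung library lay above every brain library. The log2 fold was −2.68 ± 0.52 (SE; adjusted p = 0.000717, edgeR). At the start of the same gene the peak averaged 50.9 ± 15.3 RPM in brain, against 91.1 ± 28.2 RPM in lung, with a log2 fold of −0.86 that did not pass (adjusted p = 0.109, edgeR).

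Zfp638 encodes a large nuclear protein whose human counterpart helps to silence unintegrated retroviral DNA. Its peak (chr6:83867002-83867444) had 71.2, 107, 60.2 and 66.6 RPM in the brain libraries, and 2.94 RPM at lowest, 15.6 RPM at the median and 44.1 RPM at highest in lung. The tissues did not overlap, and the log2 fold was 1.99 ± 0.48 (SE; adjusted p = 0.00529, edgeR). Zfp248 (chr6:118455027-118455576) had 93.0, 75.2, 87.8 and 109.6 RPM in the brain libraries, and 16.4, 35.1 and 55.8 RPM at lowest, median and highest in lung. It did not overlap either, with a log2 fold of 1.45 ± 0.38 (SE; adjusted p = 0.0103, edgeR).

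At Zfp687 the tissue difference passed the test at 1 of 2 adjacent peaks. The peak upstream of the start (chr3:95015953-95016545) had 73.9, 141, 125 and 131 RPM in the brain libraries, and 32.3 RPM at lowest, 60.2 RPM at the median and 74.7 RPM at highest in lung. The first 50-nuclei brain library lay within the top of the lung range. The log2 fold was 1.15 ± 0.30 (SE; adjusted p = 0.0119, edgeR), whereas the start peak beside it had a log2 fold of 0.07. Zfp267 also had 1 of 2 peaks called. The peak 376.5 bp into the gene averaged 23.5 ± 6.21 RPM in brain, against 3.31 ± 3.38 RPM in lung (log2 fold 3.48, adjusted p = 0.0178, edgeR). The peak at its side leaned the same way without passing. It averaged 62.5 ± 14.1 RPM in brain, against 37.8 ± 14.3 RPM in lung (log2 fold 0.85, adjusted p = 0.167, edgeR). The difference between the 2 peaks of a gene was itself not tested.

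Zfp58, Zfp867, Zfp971 and Zfp937 passed as higher in brain with few reads. Zfp58 (chr13:67500277-67500367) had 10.95, 12.5, 17.6 and 2.15 RPM in the brain libraries, which is 1 to 7 reads each, against no read in 4 lung libraries and 0.732 and 0.650 RPM in the rest. Zfp867 averaged 14.9 ± 5.11 RPM in brain, against 1.27 ± 1.96 RPM in lung, Zfp971 7.66 ± 6.45 RPM in brain, against 0.285 ± 0.448 RPM in lung, and Zfp937 9.09 ± 6.12 RPM in brain, against 0.474 ± 0.883 RPM in lung. These 4 peaks had no read in any 50-nuclei lung library, so that their log2 folds, from 4.46 at Zfp937 to 5.18 at Zfp58, also depend on the prior count. Each of these genes had another peak with a much smaller fold that did not pass. The lowest log2 fold of the gene was −0.03 at Zfp971, 0.17 at Zfp937, 0.94 at Zfp58 and 1.03 at Zfp867. Zfp251 averaged 29.7 ± 6.51 RPM in brain, against 8.05 ± 8.31 RPM in lung. It had 20.1 to 34.4 RPM in brain libraries, and 9.76 to 20.0 RPM in the 200-nuclei but at most 1.83 RPM in the 50-nuclei lung libraries. In the contrast at 50 nuclei, with the spread of all 10 libraries, its log2 fold was 4.74 ± 1.24 (SE; adjusted p = 0.0427, edgeR), and in a fit of the 50-nuclei libraries by themselves 4.61 (adjusted p = 0.502, edgeR).

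Zfp78, Zfp788 and Zfp619, among the widest and most strongly read peaks, passed the test with small folds. Zfp78 had a log2 fold of 0.74 ± 0.24 (SE; adjusted p = 0.0388, edgeR). Zfp788 (chr7:41632880-41633910) had 227, 204, 196 and 208 RPM in the brain libraries, against 20.6, 103 and 175 RPM at lowest, median and highest in lung, and a log2 fold of 0.98. Zfp619 (chr7:39517555-39518123) had 142 to 176 RPM in brain, above 40.2 to 111 RPM in lung, and a log2 fold of 0.91. Zfp605 on chromosome 5 averaged 52.3 ± 35.9 RPM in brain, against 18.1 ± 6.06 RPM in lung, with 105 RPM in a single 200-nuclei brain library and 30.1 to 43.8 RPM in the other 3. At Zfp407 on chromosome 18 the peak averaged 40.5 ± 17.4 RPM in brain, against 11.3 ± 7.39 RPM in lung (log2 fold 2.02), and it was 1 of 3 peaks of that gene. Another of these peaks leaned to lung with a log2 fold of −2.015 and did not pass.

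Beside Zfp36, a single peak was lower in brain. Zfp13 (chr17:23599020-23599390) had 41.1, 25.1, 40.1 and 10.7 RPM in the brain libraries, all under the lung libraries, which had 44.0 RPM at lowest, 72.9 RPM at the median and 106 RPM at highest. The log2 fold was −1.30 ± 0.41 (SE; adjusted p = 0.0386, edgeR). Zfp367 and Zfp647 were also lower in every brain library than in every lung library but did not pass, with log2 folds of −0.52 and −0.47 and adjusted p = 0.171 and adjusted p = 0.454 (edgeR).

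**Figure D4:**
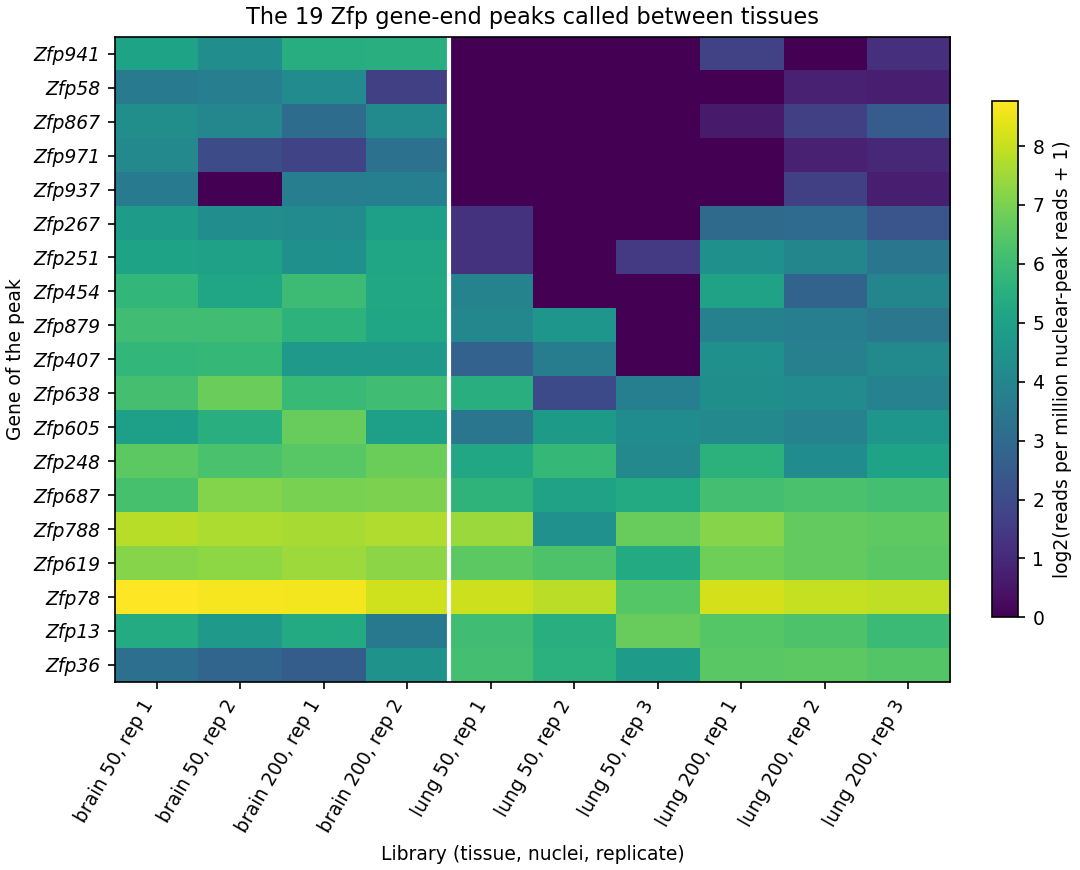
Level of the 19 called Zfp gene-end peaks in each library as log2(RPM + 1), one row per peak in order of its fold and one column per library, brain left of the white line and lung right of it. Dark cells are at or near 0: the rows of Zfp941, Zfp58, Zfp867, Zfp971 and Zfp937 are dark in all 3 of the 50-nuclei lung libraries, and those of Zfp13 and Zfp36 are brighter in lung.

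These calls depended on single libraries. Leaving out each library in turn gave between 2 and 57 peaks higher in brain and between 1 and 6 higher in lung. The count higher in brain was highest without the first 50-nuclei lung library and lowest without either 200-nuclei brain library. The share of all peaks called moved as well, from 3.76% without the first 200-nuclei brain library to 17.7% without the first 50-nuclei lung library. Zfp36 and Zfp941 passed in every one of these 10 fits. Zfp58 was lost in 1 fit, Zfp638 in 2 (without the second library of either brain size) and Zfp687 in 3, and the other calls were lost in 4 to 8. The direction of all 19 folds was kept in each of these fits in which the peak was tested.

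Wider peaks had the higher levels and the smaller folds. Among the 118 widest (342 to 1030 bp) the median level was 67.1 RPM in brain, against 54.7 RPM in lung, and the median log2 fold 0.38. Among the 118 narrowest (90 to 185 bp) the medians were 8.88 RPM in brain, against 5.66 RPM in lung, and the median log2 fold 0.86. Calls were made in both, 6 higher in brain and 1 lower among the widest, and 5 higher among the 116 tested of the narrowest. These are 5.93% and 4.31% of the peaks tested, both below the 9.72% of all peaks and the 7.69% of coding gene-end peaks. At the 29 peaks that share an end with another coding gene none passed, and the median log2 fold was 0.27. So few peaks do not set them apart from those shares.

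Of the 354 peaks, 186 lay in genomic clusters of Zfp genes. Numbered Zfp genes whose facing ends lay at most 250 kb apart formed 28 clusters of 3 or more genes, 187 genes in all, of which 131 had a gene-end peak, against 117 of the 180 genes outside. Chromosome 7 alone held 94 of the 354 peaks (26.6%), chromosome 17 held 49, chromosome 13 held 30 and chromosome 8 held 29. The 186 peaks in clusters had a median log2 fold of 0.71 and 7 calls, all higher in brain, and the 168 outside 0.51 and 12 calls, 2 of them lower. These are 3.76% and 7.23% of the peaks tested in and outside clusters, both below the 9.72% of all peaks and the 7.69% of coding gene-end peaks. The median was above 0 in 25 clusters and below 0 in 3, from −0.57 to 1.94. In 7 clusters the summed level of every brain library lay above that of every lung library, and in none below. At chr7:6131489-6396637 the gap was narrow, with 511.3 RPM at lowest in brain and 510.7 RPM at highest in lung. It was also narrow at chr9:20345136-20605404 (124.6 RPM against 124.1 RPM) and at chr10:81704747-82241280 (79.4 RPM against 77.6 RPM). Each of these gaps was smaller than a single brain read, which is worth 2.15 to 3.13 RPM. All coding gene ends together also took more nuclear reads in every brain library (61.0% to 65.4%) than in any lung library (56.2% to 59.4%). Sums over the peaks of other gene families are given below. How often sums over neighbouring genes outside the Zfp family separate was not counted. Genes within a cluster are close relatives, and reads that match several of them may have been dropped or shared by the authors' mapping, whose settings the sources used here do not give.

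**Figure D5:**
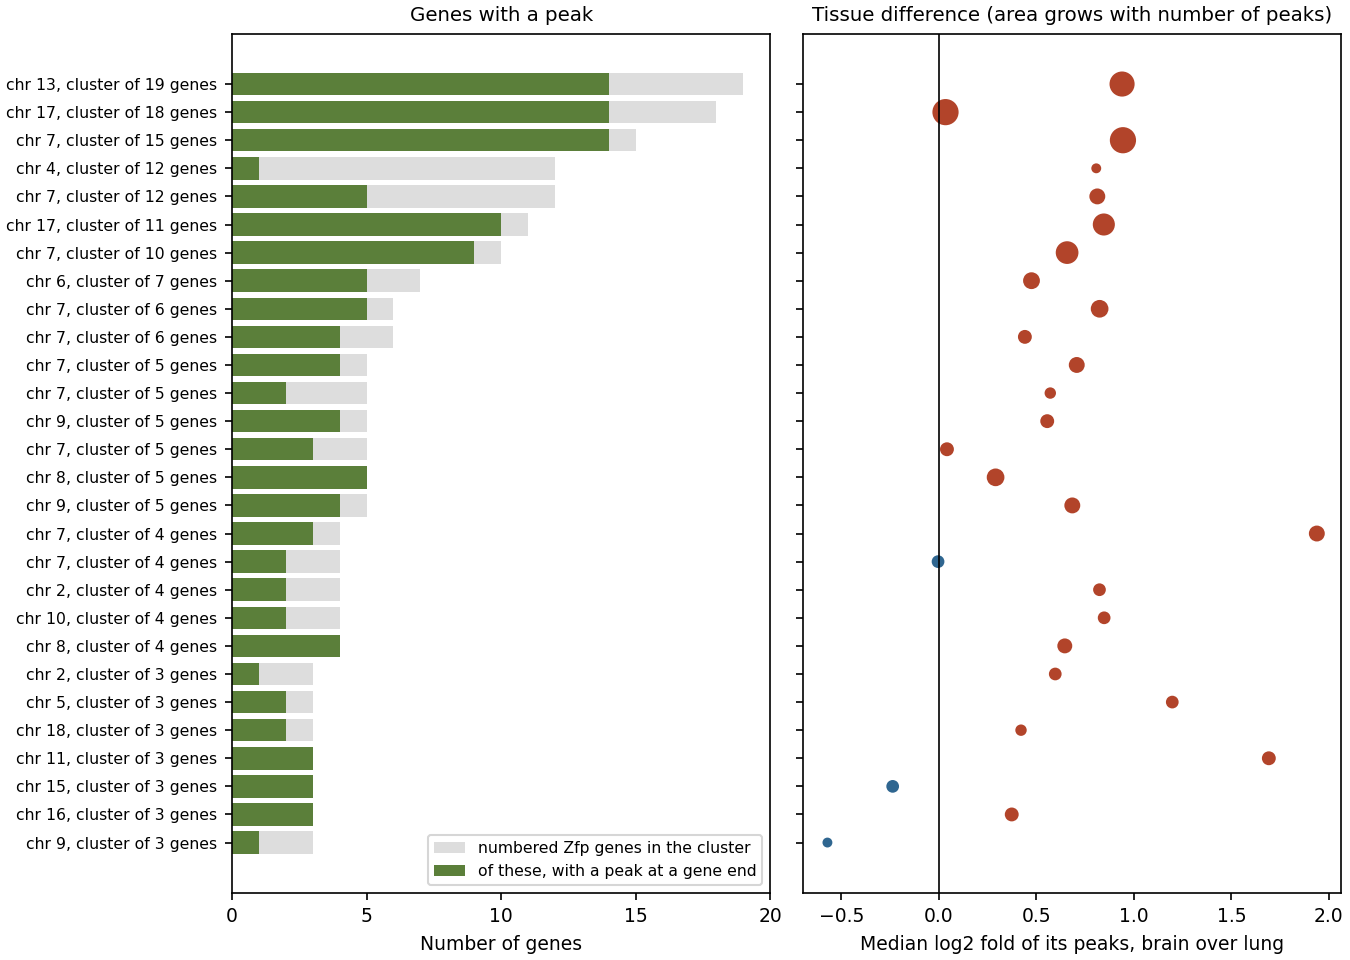
The 28 clusters of numbered Zfp genes, ordered by number of genes and named by chromosome. On the left, grey bars count the genes and green bars those with a gene-end peak. On the right, points give the median log2 fold of brain over lung of the cluster's peaks, red above 0 (25 clusters) and blue below 0 (3 clusters), with an area that grows with the number of peaks.

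The clusters differed in the share of their genes with a peak. All 3 genes had a peak in a cluster on chromosome 11 (chr11:50828994-50916216), where Zfp879 and Zfp454 both passed as higher in brain. Zfp879, whose promoter is shown above, had 65.7, 65.8, 50.2 and 34.4 RPM in the brain libraries, and 0 RPM at lowest, 12.9 RPM at the median and 23.5 RPM at highest in lung, with a log2 fold of 2.14 ± 0.59 (SE; adjusted p = 0.0155, edgeR). Zfp454 had 54.7, 34.5, 62.7 and 36.5 RPM in brain, and 0, 10.0 and 32.1 RPM at lowest, median and highest in lung, with a log2 fold of 2.22 ± 0.67 (SE; adjusted p = 0.0277, edgeR). Neither overlapped between tissues. Both peaks of Zfp2, the remaining gene, leaned the same way without passing, with 14.3 ± 10.2 and 27.8 ± 14.0 RPM in brain, against 6.93 ± 8.59 and 15.9 ± 11.9 RPM in lung. The cluster as a whole summed to 143 ± 28.3 RPM in brain, against 46.6 ± 30.2 RPM in lung.

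On chromosome 4 a cluster of 12 genes (chr4:146449030-147849126) had a peak at Zfp933 alone. In contrast, 14 of 15 genes had one in the chromosome 7 cluster at chr7:29768552-30169775, which held 21 peaks and summed to 766 ± 93.3 RPM in brain, against 531 ± 97.3 RPM in lung. Its strongest peaks were those of Zfp566 (110.7 ± 29.3 RPM in brain, against 99.6 ± 23.1 RPM in lung), Zfp146 (73.9 ± 28.2 RPM in brain, against 71.2 ± 6.72 RPM in lung) and Zfp14 (67.7 ± 38.1 RPM in brain, against 44.5 ± 27.2 RPM in lung). Zfp568 in the same cluster, which in the mouse silences a placental Igf2 transcript, had 51.2 ± 15.2 RPM in brain, against 60.1 ± 18.6 RPM in lung at its main peak. No peak of this cluster was called, and its median log2 fold was 0.94.

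The cluster with the most genes, on chromosome 13 (chr13:67038594-67827000), had 14 of 19 genes with a peak. It summed to 542 and 482 RPM in the 50-nuclei and 439 and 421 RPM in the 200-nuclei brain libraries, above the lung range of 153 to 355 RPM, and 18 of its 19 peaks had a log2 fold above 0. Besides Zfp58, which was called, Zfp85 had 32.6 ± 7.72 RPM in brain, against 9.25 ± 7.45 RPM in lung (log2 fold 1.82, adjusted p = 0.109, edgeR), while Zfp87 had 56.3 ± 15.2 RPM in brain, against 53.3 ± 11.5 RPM in lung.

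The chromosome 17 cluster at chr17:21383707-22456689 showed no such lean. It had 21 peaks at 14 of its 18 genes and summed to 398 ± 37.3 RPM in brain, against 403 ± 44.8 RPM in lung, with a median log2 fold of 0.03. Its strongest peak, at Zfp51, had 67.9 ± 14.1 RPM in brain, against 70.7 ± 20.3 RPM in lung, and Zfp54 had 22.7 ± 11.8 RPM in brain, against 36.7 ± 7.59 RPM in lung. A second cluster on that chromosome (chr17:32765496-33631716) summed to 348 to 493 RPM in brain libraries and 115 to 323 RPM in lung libraries, without overlap, though none of its 14 peaks passed. The difference between the clusters was not tested.

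In the chromosome 7 cluster at chr7:127233061-127885996, with 15 peaks at 9 of 10 genes, the sum was 488 ± 35.1 RPM in brain, against 406 ± 87.7 RPM in lung, and brain and lung libraries overlapped. The closest to a call there was a peak of Zfp689 with 34.7 ± 7.01 RPM in brain, against 8.80 ± 5.31 RPM in lung (log2 fold 1.92, adjusted p = 0.0660, edgeR). The 5 genes of the chromosome 8 cluster at chr8:69610654-69774911, which include Zfp868 and Zfp869, all had peaks and summed to 781 ± 22.3 RPM in brain, against 656 ± 39.3 RPM in lung. Zfp963 in it had 168 ± 17.4 RPM in brain, against 98.8 ± 41.5 RPM in lung (log2 fold 0.81, adjusted p = 0.0644, edgeR).

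A few genes were looked at for their known roles, after their values had been seen. Zfp57 and Zfp445, which in the mouse keep imprinted genes methylated, had no gene-end peak. Zfp809, which in mouse embryonic cells represses retroviruses that carry a proline tRNA primer binding site, had 60.2 to 103 RPM in brain, against 20.6 to 92.5 RPM in lung, with a log2 fold of 0.86 (adjusted p = 0.104, edgeR).

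Of the 24 corepressor genes matched, 19 had a gene-end peak. None of their 24 peaks passed in either direction (edgeR), where 7.69% of coding gene-end peaks did, and so few peaks do not set them apart from that share. Their median log2 fold was 0.32, and their summed level was 1442 ± 108 RPM in brain, against 1386 ± 116 RPM in lung. Trim28 had 49.7 ± 20.3 RPM in brain, against 21.1 ± 15.9 RPM in lung (log2 fold 1.18, adjusted p = 0.203, edgeR), and Setdb1 had 20.8 ± 3.57 RPM in brain, against 13.4 ± 11.1 RPM in lung (log2 fold 0.76, adjusted p = 0.562, edgeR). The lowest p-value was that of the histone deacetylase gene Hdac2, with 112 ± 16.5 RPM in brain, against 52.6 ± 27.7 RPM in lung (log2 fold 1.20, adjusted p = 0.0574, edgeR). The largest levels were those of Cbx3, a heterochromatin protein 1 gene, with 207 ± 32.2 RPM in brain, against 266 ± 34.9 RPM in lung. Among other zinc finger families, 1 of 24 peaks at Zscan and Zkscan genes was higher in brain (median log2 fold 0.42), and 1 of 38 at Zbtb genes was lower in brain (median 0.41). The log2 fold was above 0 at 83.3% of the Zscan and Zkscan peaks and at 71.05% of the Zbtb peaks. Summed, the Zscan and Zkscan peaks had 821 to 918 RPM in brain libraries and 528 to 781 RPM in lung libraries, also without overlap. The tissues overlapped in the sums of the Zbtb peaks, with 2321 to 2765 RPM in brain and 2486 to 2862 RPM in lung. They also overlapped in those of the corepressor peaks, with 1289 to 1530 RPM in brain and 1187 to 1532 RPM in lung. A numbered Zfp gene had a gene-end peak in 67.6% of cases, against 45.0% of other coding genes, 81.8% of Zscan and Zkscan genes and 82.9% of Zbtb genes.

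The tissue difference was also read within each number of nuclei, in contrasts that use the spread of all 10 libraries. At 50 nuclei 2 Zfp peaks were higher in brain, Zfp941 and Zfp251, and none lower, against 0.974% and 0.331% of all peaks (1.31% in either direction). At 200 nuclei Zfp941 was higher and the far-end peak of Zfp36 lower, with a log2 fold of −2.80 ± 0.68 (SE; adjusted p = 0.0211, edgeR), against 0.889% and 1.07% of all peaks (1.96% in either direction). Fits of each size by itself gave other counts: 0 higher and 0 lower at 50 nuclei, where 0.00601% of all peaks were called, and 22 higher and 5 lower at 200 nuclei, where 15.6% of all peaks were called. The median log2 fold over the 352 peaks was 0.71 at 50 nuclei, where that of all peaks was 0.34, and 0.42 at 200 nuclei, where that of all peaks was −0.12. Between 200 and 50 nuclei no Zfp peak passed in lung, in brain or as a dependence of the tissue difference on size (edgeR), and neither did any other peak (0.0% called). At an unadjusted p under 0.05 there were 34, 2 and 10 Zfp peaks in these comparisons, and 32 of the 34 in lung were higher at 200 nuclei. Of all peaks 9.42%, 1.07% and 4.38% reached that p, and the fold of size in lung was above 0 at 70.7% of the Zfp peaks and at 70.2% of all peaks, so that the Zfp peaks were near the background. Without the first 50-nuclei lung library 15 Zfp peaks passed for size in lung. The share of all peaks that passed in that fit was not counted, so the 15 cannot be set against a background.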

How the data were processed

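For 37513 peaks and 10 libraries the deposited values were whole-number counts of reads without normalization. The submitters' processing notes name mm10 as the build. Tools listed there, with no role given, are bcl2fastq (version 2.20), Trimmomatic (version 0.36) and Bowtie2 (version 2.4.5). Also listed there are MACS2 (version 2.2.7.1), SAMtools (version 1.14), deepTools (version 3.1.3), Picard and R (version 4.1.0). Sources used here do not give how duplicates, the merging of peaks, the Tn5 offset and multi-mapping reads were treated. If PCR duplicates remain, they raise the spread between libraries.

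Peaks were placed on RefSeq genes of GRCm38.p6, the assembly of mm10, with coordinates as the table gives them. Nuclear peaks with at least 10 reads in all were fitted in edgeR 4.0.16 (R 4.3.3, TMM, quasi-likelihood), with a mean for each of the 4 groups and 1 shared spread. The contrast of brain over lung averages both sizes, and calls used Benjamini-Hochberg adjusted p-values over all 37464 peaks at 0.05. Totals and lists over the Zfp peaks got no test. In simulated counts with 100 peaks changed at each fold, 35 of 100 peaks changed 4-fold and 99 of 100 changed 16-fold were recovered, with 6 false calls. The changed peaks were drawn from well-read peaks only, and the simulated spread was below the mean spread fitted to the data. These shares therefore do not hold for weakly read Zfp peaks. Standard errors are given for called peaks only. The peaks and gene lists were chosen with earlier results of these data known.

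Genes were named by a rule: all called peaks, the 8 highest and 4 lowest by mean level, the strongest genes of the 4 clusters with the most peaks, and genes with several peaks. Not every gene that the rule allows is named. In their clusters Zfp85 and Zfp689 are named while stronger peaks, such as those of Zfp712 and Zfp771, are not described. Zfp689 was picked as the closest to a call. Genes outside the rule are said to have been picked after their values were seen, or stand in a comparison of gene families or clusters. For the printed promoters, the requirement that the peak overlap them was added after seeing the data. Replicate numbers are not said to pair the libraries and were not treated as pairs in the main fit. Correlations of deviations from the group means lay between −0.0292 and 0.0193. They cannot exclude a pairing, since few reads per peak also bring such correlations near 0. Alternatives covered DESeq2 1.42.0, other scalings, filters, distance windows, a replicate block and leaving out libraries.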

Additional observations from a re-analysis of the deposited data

Results flagged for a closer look

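Of 62 sets of replicate levels examined at the named peaks, 5 held a library far from the others by Dixon's criterion. Chance alone marks about 1 in 20 such sets. At the called Zfp937 peak the second 50-nuclei brain library had 0 RPM, where the other brain libraries had 10.95 to 12.9 RPM, and the second 200-nuclei lung library had 2.20 RPM, where the other lung libraries had 0 to 0.650 RPM. At Zfp78 replicate 3 of the 50-nuclei lung libraries had 85.8 RPM, against 229 to 294 RPM in the other lung libraries. At Zfp438 the first 50-nuclei lung library had 301 RPM, against 197 to 228 RPM in the others. At Zfp654 the second 50-nuclei lung library had 276 RPM, against 187 to 205 RPM in the others. Of the 5, 3 were 50-nuclei lung libraries, of which replicates 2 and 3 were sparse.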

How the results depend on the processing

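The median log2 fold of the Zfp peaks was above that of all peaks by 0.37 to 0.54 in every fit. It was 0.36 with the 200-nuclei libraries alone and turned to −2.85 when libraries were scaled to all reads, where the median of all peaks was −3.34. Under that scaling the summed level turned to −3.14, and 1 peak was higher in brain and 282 in lung. Folds of named peaks that turned with it were Zfp638 (−1.41), Zfp248 (−2.06), Zfp687 (−2.38 and −3.46), Zfp879 (−1.34), Zfp251 (−0.66), Zfp454 (−1.04), Zfp619 (−2.57), Zfp788 (−2.44), Zfp78 (−2.72), Zfp407 (−1.48), Zfp605 (−1.97) and Zfp868 (−3.20). The scaling counts the mitochondrial reads, which by construction lowers every brain value. Per 1000000 gene-end reads the summed difference was 0.18.

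Counts of calls moved with the fit. DESeq2 gave 34 peaks higher in brain and 14.9% of all peaks called. The replicate block gave 3 higher and 1 lower and 4.97% of all peaks, the 50-nuclei libraries alone 0 and 0 and 0.00601%, and the 200-nuclei libraries alone 22 higher, 5 lower and 15.6%, with 8 of these 27 calls shared with the 19. Without both sparse lung libraries there were 43 higher, 10 lower and 22.4% of all peaks. Leaving out 1 library each gave 2 to 57 higher, 1 to 6 lower and 3.76% to 17.7% of all peaks. It also gave 0 to 15 Zfp peaks called for size in lung, for which no share of all peaks was counted. Scaling to all reads called 81.0% of all peaks. With a window of 500 bp, or gene starts alone, 1 peak was lower in brain. The cause of these moves was not tested. Restricting the genes to those with a KRAB domain was not run. Depth limits the low peaks, where a few reads decide a fold. Clusters numbered 29 with a gap of 100 kb and 33 with 500 kb.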
